A study of Homo sapiens with 8 samples.

Results

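Messenger RNA levels of 2 human colorectal cancer cell lines, HT29 and SW480, were compared in cells that had received a control siRNA. The comparison used 2 libraries of control siRNA-transfected HT29 cells and 2 libraries of control siRNA-transfected SW480 cells out of 8 libraries in the series, and no library with PRDX2 siRNA entered its fit. The control siRNA was directed against firefly luciferase, a gene that human cells do not carry, and RNA was taken 36 h after transfection. HT29 cells grew in McCoy's 5A medium and SW480 cells in RPMI 1840 medium, both with 10% fetal bovine serum. In the study the lines served as APC-mutant colorectal cancer cells in which PRDX2, the gene of peroxiredoxin II, was knocked down. Of 25192 gene symbols in the files, 14346 reached 10 counts in 2 or more of these 4 libraries and were tested. Each line is a single established line, so that any value below is that of the line and of its culture medium together, and line and medium cannot be told apart. The study's methods describe the sequencing of HT29 samples, so that library preparation and sequencing cannot be told apart from the line either, and the same processing was assumed for SW480 from the like layout of the files. The labels number the libraries of a line as replicates, and the study calls those of HT29 duplicate experiments. Neither says whether they came from separate cultures, and the p-values measure only the spread between these libraries, which may be technical.

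HT29 and SW480 were both derived from adenocarcinomas of the colon. Colon epithelium is renewed from stem cells at the crypt base, where Wnt signalling keeps β-catenin from being degraded, and its descendants become absorptive enterocytes or secretory goblet cells under transcription factors such as CDX2, HNF4A and SPDEF. Epithelial cells are joined by E-cadherin, claudins and desmosomes, and carcinoma cells can lose these contacts and take up vimentin, fibronectin and the repressor ZEB1, a shift known as the epithelial-mesenchymal transition. APC is a scaffold of the complex that marks β-catenin for degradation, and its truncation in colorectal tumours leaves β-catenin free to act with TCF and LEF factors on target genes.

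Each control library held from 8857442 to 9854707 expected counts. At these totals, 3 counts in each library of a line correspond to 0.317 CPM in HT29 and 0.318 CPM in SW480 (CPM, the count relative to the library total scaled by edgeR's TMM factors), which was taken as the floor for genes without reads and covers counting error only. PRDX2 itself was at 151 and 157 CPM in HT29 and 199 and 235 CPM in SW480. The HT29 duplicates differed little beyond counting error, with a chi-square of 1.38 per degree of freedom over genes, against 10.9 for the SW480 duplicates and 147 to 153 between libraries of different lines. Across genes, the difference between the SW480 duplicates correlated with transcript GC content at a Spearman rho of -0.702, against -0.169 for the HT29 duplicates and 0.068 for the difference between the lines. Among the 10 epithelial markers listed for the colon, EPCAM, CDH1, KRT8, KRT18, KRT19, VIL1 and CDX2 were detected above 5 CPM in every control library. The other three were below 1 CPM in both SW480 libraries, namely LGALS4 at 0.55 and 0.31 CPM, CDH17 at 0.55 and 0.71 CPM and CEACAM5 at 0.11 and 0.1 CPM. In bulk libraries, a higher share of cells that express a gene and more RNA of it per cell cannot be told apart.

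The lines differed widely. HT29 cells carried colonic differentiation, secretory and epithelial junction transcripts that were low or without reads in SW480 cells, and SW480 cells carried mesenchymal transcripts and high levels of several Wnt feedback genes. edgeR's quasi-likelihood test called 9681 genes at an adjusted p under 0.05, which is 67.5% of those tested. Of these, 4559 genes (31.8%) were higher in HT29 and 5122 (35.7%) were higher in SW480. With a difference of at least 2-fold asked for in addition, 2259 genes (15.7%) were higher in HT29 and 3086 (21.5%) in SW480, and 4336 called genes differed by less than 2-fold. At 4-fold or more, 1039 genes were higher in HT29 and 1915 in SW480. For every called gene, both libraries of one line lay above both libraries of the other. The same held for 12048 of the 14346 genes tested, called or not, so that it does not set the called genes apart. The median log2 difference of all genes tested, HT29 over SW480, was -0.0447, and the median absolute log2 difference was 0.686. Ranks of TPM (which also accounts for transcript length) correlated at a Spearman rho of 0.795 between the lines, against 0.997 between the HT29 and 0.988 between the SW480 duplicates, as a description across genes. Below, a log2 difference is HT29 over SW480, so that a positive value is higher in HT29, and is given with its standard error (SE) from the fit with n = 2 libraries per line. "Called" means an adjusted p under 0.05 in edgeR's quasi-likelihood test, adjusted by Benjamini-Hochberg over all genes tested.

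**Figure D1:**
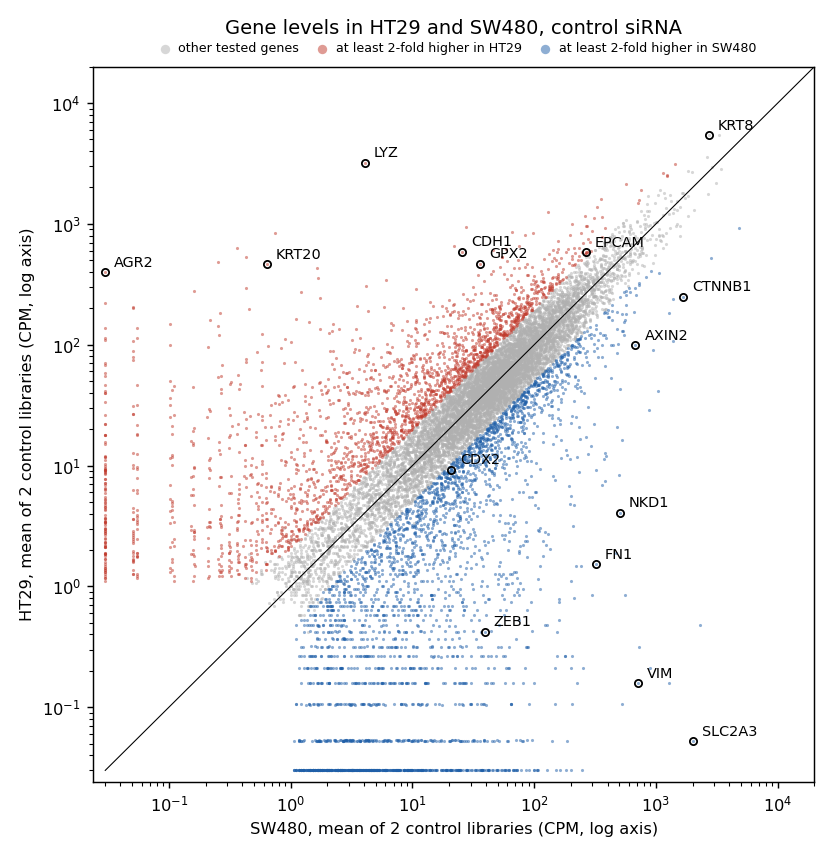
Mean level of each tested gene in the 2 control libraries of SW480 (horizontal axis, CPM, log scale) and of HT29 (vertical axis, CPM, log scale), with genes without reads drawn at 0.03 CPM. Red and blue points are genes called at 2-fold or more, the line marks equal levels, and AGR2, KRT20 and LYZ lie far on the HT29 side while VIM and SLC2A3 lie far on the SW480 side.

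A set of genes was read in one line alone. With at most 3 counts in both libraries of one line and a mean of at least 10 CPM in the other, 83 genes were found in HT29 and 303 in SW480. Reads were lacking in both SW480 libraries for 27 of the 83, and in both HT29 libraries for 136 of the 303. The median level in the expressing line was 29.1 CPM for the HT29 genes and 25.2 CPM for the SW480 genes, and 14 and 27 genes, respectively, exceeded 100 CPM. The HT29 gene of this kind with the most reads was AGR2, an endoplasmic reticulum protein disulfide isomerase of mucus-producing cells. AGR2 was at 408 and 388 CPM in HT29 and had no reads in SW480, which is at least 1251-fold higher. The calcium-binding protein gene S100P was at 273 and 283 CPM in HT29 against 0.22 and 0.1 CPM in SW480, a ratio of 1752-fold (95% counting interval 599 to 8499). As TPM, which takes transcript length into account, the order was the reverse, with S100P at 1250.0 and 1296 TPM and AGR2 at 917 and 872 TPM in HT29. F5, which encodes coagulation factor V, was at 213 and 199.5 CPM in HT29 against 0 and 0.1 CPM in SW480, and the stem cell surface gene PROM1 was at 201 and 202 CPM in HT29 against 0 and 0.1 CPM in SW480.

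In SW480 the gene of this kind with the most reads was SLC2A3, which encodes the high-affinity glucose transporter GLUT3 and lies on chromosome 12, 8071826 to 8171603 (GRCh37). SLC2A3 was at 2061 and 1974 CPM in SW480 and at 0.1 and 0 CPM in HT29, a ratio of 38174-fold (95% counting interval 6851 to 1507800). Its expected counts in SW480 were not whole numbers (18715.88 and 19372.81), so that some of its reads may be shared with another gene. APCDD1, a membrane inhibitor of Wnt signalling, was at 813 and 959 CPM in SW480 against 0.21 and 0.21 CPM in HT29. NGFR, the low-affinity neurotrophin receptor, was at 656 and 791 CPM in SW480 against 0.31 and 0.32 CPM in HT29. The secreted glycoprotein gene STC2 was at 245 and 245 CPM and had no reads in HT29, which is at least 773-fold higher in SW480. Others without reads in HT29 were DCLK1, a doublecortin-like kinase, at 213 and 185 CPM in SW480, ELOVL5, a fatty acid elongase, at 192 and 172 CPM, IGFBP3, an insulin-like growth factor binding protein, at 172 and 152 CPM, and GLI3, a transcription factor of hedgehog signalling, at 136 and 167 CPM. The libraries with PRDX2 siRNA, which were not used to choose these genes, held 77 of the 83 HT29 genes and 277 of the 303 SW480 genes at 10 CPM or more in the same line. In the other line, 82 of the 83 and 303 of the 303 stayed under a mean of 1 CPM there.

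Promoter windows of these genes differed in their content of CG dinucleotides, which are sparse in most of the genome and dense in CpG islands. RefSeq windows (GRCh38.p14, 250 bases before to 50 after the start of the gene) could be matched to 10106 of 14335 tested genes, with genes that mark sex left out. The ratio of observed to expected CG exceeded 0.6 in 80.6% of them, in 62.9% of 205 windows of genes read in SW480 alone and in 32.1% of 56 windows of genes read in HT29 alone. Median ratios were 0.833, 0.741 and 0.354, respectively. Genes at least 2-fold higher in HT29 had 63.4% of 1501 windows above that value, genes at least 2-fold higher in SW480 had 72.4% of 2026, and genes not called had 85.7% of 3284. These shares are descriptions, and DNA methylation was not measured. To show the contrast, the windows of the 3 genes with the most reads (CPM, not corrected for length) in each set that had a window are printed 5′ to 3′ on the strand of the gene, with each CG in capitals. They are AGR2 (chr7:16804950-16805249, minus strand), S100P (chr4:6693628-6693927, plus strand) and F5 (chr1:169586432-169586731, minus strand) for HT29, and APCDD1 (chr18:10454385-10454684, plus strand), VIM (chr10:17227991-17228290, plus strand) and WNT5A (chr3:55487257-55487556, minus strand) for SW480.
AGR2: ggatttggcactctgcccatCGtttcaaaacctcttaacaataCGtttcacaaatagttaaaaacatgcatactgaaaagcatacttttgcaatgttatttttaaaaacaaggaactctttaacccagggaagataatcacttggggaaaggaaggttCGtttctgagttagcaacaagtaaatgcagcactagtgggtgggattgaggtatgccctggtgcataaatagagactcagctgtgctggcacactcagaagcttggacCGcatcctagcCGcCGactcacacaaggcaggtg
S100P: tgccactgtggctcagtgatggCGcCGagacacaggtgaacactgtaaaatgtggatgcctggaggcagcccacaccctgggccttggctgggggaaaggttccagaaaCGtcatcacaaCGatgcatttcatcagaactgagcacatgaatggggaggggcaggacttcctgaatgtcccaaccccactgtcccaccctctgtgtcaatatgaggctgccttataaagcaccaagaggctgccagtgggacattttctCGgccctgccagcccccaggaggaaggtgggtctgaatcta
F5: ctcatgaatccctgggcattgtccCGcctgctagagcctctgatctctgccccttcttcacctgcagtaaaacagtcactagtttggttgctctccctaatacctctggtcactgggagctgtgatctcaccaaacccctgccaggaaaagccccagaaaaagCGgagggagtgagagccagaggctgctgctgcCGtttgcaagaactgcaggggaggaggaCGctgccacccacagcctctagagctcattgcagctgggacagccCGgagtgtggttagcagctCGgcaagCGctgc
APCDD1: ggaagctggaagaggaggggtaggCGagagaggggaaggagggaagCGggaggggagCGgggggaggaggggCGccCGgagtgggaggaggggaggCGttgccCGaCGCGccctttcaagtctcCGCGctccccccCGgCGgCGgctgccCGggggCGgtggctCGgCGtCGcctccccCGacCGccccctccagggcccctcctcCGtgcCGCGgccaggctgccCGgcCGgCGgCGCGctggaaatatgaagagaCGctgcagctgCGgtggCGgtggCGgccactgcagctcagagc
VIM: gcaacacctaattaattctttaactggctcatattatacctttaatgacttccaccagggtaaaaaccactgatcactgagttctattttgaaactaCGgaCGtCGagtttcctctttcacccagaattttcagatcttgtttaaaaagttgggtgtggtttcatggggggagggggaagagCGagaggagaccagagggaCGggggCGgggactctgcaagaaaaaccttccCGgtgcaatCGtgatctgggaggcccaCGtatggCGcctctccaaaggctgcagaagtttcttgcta
WNT5A: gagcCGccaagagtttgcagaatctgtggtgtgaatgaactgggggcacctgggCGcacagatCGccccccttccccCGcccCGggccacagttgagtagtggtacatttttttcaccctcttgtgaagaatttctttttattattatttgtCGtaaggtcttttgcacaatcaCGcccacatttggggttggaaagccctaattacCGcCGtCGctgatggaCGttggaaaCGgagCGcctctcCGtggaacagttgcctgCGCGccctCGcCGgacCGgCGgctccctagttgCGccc
The AGR2 window holds 6 CG dinucleotides with an observed to expected ratio of 0.42, the S100P window 5 with 0.213 and the F5 window 7 with 0.278. The APCDD1 window holds 33 with 0.786, the WNT5A window 21 with 0.884 and the VIM window 10 with 0.584, so that VIM lies between the sets.

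Most tested genes of enterocytes and of colon identity were higher in HT29. Of 47 listed genes, 29 passed the filter on low counts and 18 did not, among them FABP2, SLC26A3 and AQP8 without reads in either line. Of those tested, 25 were higher in HT29 and 4 in SW480, and 24 and 3 of these by at least 2-fold, against 15.7% and 21.5% of all genes tested. The median log2 difference was 4.17, or 3.44 with genes without reads taken at their bound. KRT20, the keratin of differentiated colonic cells, was at 469 and 457 CPM in HT29 and 0.66 and 0.61 CPM in SW480, a log2 difference of 9.48 (SE 0.175, adjusted p = 9.12e-09 by edgeR). LGALS4, the intestinal lectin galectin-4, was at 526 and 537 CPM in HT29 against 0.55 and 0.31 CPM in SW480 (10.25 on the log2 scale, SE 0.195). TSPAN8, a tetraspanin of intestinal epithelium, was at 356 and 355 CPM in HT29 against 1.43 and 1.94 CPM in SW480. TM4SF4 was at 490.1 and 476 CPM in HT29 against 0 and 0.51 CPM in SW480 and the carbonic anhydrase gene CA12 at 275 and 276 CPM in HT29 against 1.21 and 1.22 CPM in SW480. These levels in SW480 were near or below the floor of 3 counts for LGALS4 and TM4SF4.

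Among carcinoembryonic antigen genes, CEACAM5 was at 10.8 and 9.46 CPM in HT29 against 0.11 and 0.1 CPM in SW480, CEACAM6 at 43.5 and 42.2 CPM in HT29 against 0.33 and 0.2 CPM in SW480 and CEACAM1 at 205 and 199 CPM in HT29 against 18.6 and 19.2 CPM in SW480. Among transcription factors, HNF4G was at 46.8 and 50.9 CPM in HT29 and 0.44 and 0.2 CPM in SW480, and GATA6 at 47.6 and 42.1 CPM in HT29 against 0.88 and 2.14 CPM in SW480. HNF4A was expressed in both lines, at 87.7 and 93.5 CPM in HT29 and 40.1 and 50.4 CPM in SW480, a log2 difference of 1.00 (SE 0.138). The microvillus protein gene VIL1 also had reads in both, at 163 and 165 CPM in HT29 against 49.9 and 52.4 CPM in SW480. Some identity genes went the other way. CDX2, the homeobox factor that specifies intestine, was at 9.44 and 9.04 CPM in HT29 and 18.8 and 22.5 CPM in SW480, a log2 difference of -1.16 (SE 0.178, adjusted p = 0.000443 by edgeR). The aminopeptidase gene ANPEP was at 0.94 and 0.43 CPM in HT29 against 4.41 and 7.13 CPM in SW480, and KLF4 was called below 2-fold at 13.7 and 12.7 CPM in HT29 against 17.2 and 18.9 CPM in SW480.

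Secretory lineage genes showed a similar pattern. Of 40 listed genes, 2 were not in the files and 23 were tested, with 20 higher in HT29 and 3 higher in SW480. By at least 2-fold these were 19 and 3, against 15.7% and 21.5% of all genes tested, and the median log2 difference was 3.67 (3.37 with bounds). LYZ, which encodes lysozyme, an antibacterial enzyme of Paneth cells and other secretory cells, was the secretory gene with the highest level, at 3259.5 and 3166 CPM in HT29 and 3.85 and 4.28 CPM in SW480, a log2 difference of 9.62 (SE 0.124). SPDEF, the transcription factor of goblet cell maturation, was at 40.2 and 42.3 CPM in HT29 and had no reads in SW480, which is at least 129.7-fold higher. FOXA1, a pioneer factor of endodermal genes, was at 157 and 151 CPM in HT29 against 1.32 and 1.53 CPM in SW480 (6.74 on the log2 scale, SE 0.173). REG4 at 15.3 and 15.7 CPM and SPINK1 at 33.5 and 33.8 CPM in HT29 had no reads in SW480. MUC13, a transmembrane mucin, was at 206 and 199.8 CPM in HT29 against 52.6 and 52.7 CPM in SW480, and the iron-siderophore carrier LCN2 at 351 and 349 CPM in HT29 against 59.4 and 60.6 CPM in SW480.

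Goblet cell products themselves were low in HT29. The secreted mucin gene MUC2 was at 6.08 and 5.74 CPM in HT29 against 0.11 and 0.51 CPM in SW480, and the trefoil factor gene TFF3 at 3.99 and 5.74 CPM in HT29 against 0.33 and 0.41 CPM in SW480. Both were called, with log2 differences of 4.17 (SE 0.434) and 3.67 (SE 0.414). GFI1, a transcriptional repressor, was higher in SW480 at 5.62 and 5.91 CPM against 0.52 and 0.21 CPM in HT29. The α-defensin gene DEFA5 was at 2.42 and 1.73 CPM in SW480 and had no reads in HT29, and MUC1 was at 2.41 and 1.6 CPM in HT29 and 3.96 and 5.2 CPM in SW480.

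Cell junction genes were mostly higher in HT29. Of 52 listed genes, 50 were tested, with 38 higher in HT29, 8 higher in SW480 and 4 not called. By at least 2-fold the counts were 32 and 3, against 15.7% and 21.5% of all genes tested, and the median log2 difference was 1.31. CDH1, the gene of E-cadherin on chromosome 16, 68771195 to 68869440 (GRCh37), was at 599 and 577 CPM in HT29 and 24.9 and 26.2 CPM in SW480, which is 23-fold higher in HT29 (log2 4.52, SE 0.112, adjusted p = 2.36e-08 by edgeR). EPCAM, by contrast, differed by 2.18-fold, at 580.1 and 579.7 CPM in HT29 against 282 and 249 CPM in SW480 (log2 1.13, SE 0.0994). ESRP1, a splicing factor of epithelial isoforms, was at 262 and 256 CPM in HT29 against 52 and 44.2 CPM in SW480. GRHL2, a transcription factor that maintains epithelial genes, was at 96.3 and 95 CPM in HT29 against 0.11 and 0.31 CPM in SW480 (log2 8.73, SE 0.258). RAB25, a GTPase of epithelial recycling endosomes, was at 144 and 151 CPM in HT29 against 0 and 0.2 CPM in SW480, a ratio of 1393-fold (95% counting interval 385 to 11511). The membrane serine protease PRSS8 was at 122 and 124 CPM in HT29 against 0.44 and 0.71 CPM in SW480, and the apical traffic protein MAL2 at 961 and 925 CPM in HT29 against 30.3 and 25.1 CPM in SW480.

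Claudins build the tight junction strand. A group of 9 claudin genes was picked from the family after values were seen. Of these, 8 were tested, 5 were higher in HT29, 2 in SW480 and 1 was not called, against 31.8% and 35.7% of all genes tested. CLDN11, which was not among the 9, was at 154 and 151 CPM in SW480 against 0.21 and 0.32 CPM in HT29. CLDN2, a cation pore claudin, was at 55 and 56 CPM in HT29 against 0.33 and 0.2 CPM in SW480, CLDN3 at 139.8 and 143 CPM in HT29 against 15.1 and 26.2 CPM in SW480 and CLDN4 at 514 and 521 CPM in HT29 against 143 and 187 CPM in SW480, while CLDN1 was higher in SW480 at 173 and 151 CPM against 75.4 and 74.2 CPM in HT29. Occludin was not called, with OCLN at 47.4 and 46.7 CPM in HT29 and 45.8 and 41.9 CPM in SW480. Desmosomal genes were split. DSC2 was at 98.5 and 97.7 CPM in HT29 against 9.69 and 8.66 CPM in SW480 and JUP at 623 and 638 CPM in HT29 against 179 and 249 CPM in SW480, but DSP was higher in SW480 at 403 and 417 CPM against 225 and 218 CPM in HT29, as was PKP2 at 83.6 and 88.2 CPM in HT29 against 164 and 158 CPM in SW480. The simple epithelial keratins KRT8 and KRT18 were among the highest transcripts of both lines, with KRT8 at 5388 and 5472 CPM in HT29 and 2396 and 3060.5 CPM in SW480 (log2 0.99, SE 0.11). KRT19 was not called, at 849 and 856 CPM in HT29 against 655 and 838 CPM in SW480. KRT7 at 5.66 and 5.74 CPM in HT29 against 31.9 and 53.1 CPM in SW480 and KRT23 at 7.24 and 6.49 CPM in HT29 against 358 and 364 CPM in SW480 were keratins higher in SW480.

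ZEB1 and the SNAI repressors are known to bind E-box letters in promoters of epithelial genes, and ZEB1, SNAI1 and SNAI2 were higher in SW480. Letters CACCTG on either strand were found in 19% of all matched windows of tested genes, in 10 of 24 windows (41.7%) of the junction list, in 4 of 29 (13.8%) of the mesenchymal list and in 32.1% of windows of genes read in HT29 alone. Only 24 of the 50 tested junction genes had a window, and CDH1, EPCAM, ESRP1 and GRHL2 were not among them. The letters were in 23.4% of windows of genes read in SW480 alone. For genes at least 2-fold higher in HT29 and in SW480 the shares were 25.1% and 20.7%. Of the other letters searched on both strands, CTTTGAT, CAAAGTCC and TTTATGG were in none of the 24 junction windows, against 1.39%, 1.11% and 1.44% of all matched windows. TTTATGG was in 3 of 19 windows (15.8%) of the enterocyte and colon identity list. A match is a description of letters and says nothing on binding. The window of SPDEF, which had no reads in SW480, held no CACCTG. As examples with a match, the windows of RAB25 (chr1:156060910-156061209, plus strand) and of LGALS4 (chr19:38812896-38813195, minus strand) are shown. Both are epithelial genes that were nearly without reads in SW480, and CACCTG or its reverse complement is in capitals.
RAB25: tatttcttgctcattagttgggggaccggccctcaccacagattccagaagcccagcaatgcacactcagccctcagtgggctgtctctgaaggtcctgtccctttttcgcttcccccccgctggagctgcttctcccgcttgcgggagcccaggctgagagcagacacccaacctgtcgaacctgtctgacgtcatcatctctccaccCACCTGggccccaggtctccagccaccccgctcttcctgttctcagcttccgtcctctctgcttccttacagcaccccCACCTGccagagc
LGALS4: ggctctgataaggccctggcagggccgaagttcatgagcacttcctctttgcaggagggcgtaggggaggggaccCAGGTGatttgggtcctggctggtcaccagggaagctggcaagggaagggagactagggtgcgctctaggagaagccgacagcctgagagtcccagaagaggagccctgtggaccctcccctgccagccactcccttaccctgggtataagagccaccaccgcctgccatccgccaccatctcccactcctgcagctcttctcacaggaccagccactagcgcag

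Most tested mesenchymal genes were higher in SW480. Of 54 listed genes, 42 were tested, with 32 higher in SW480, 5 higher in HT29 and 5 not called. By at least 2-fold these were 30 and 2, against 21.5% and 15.7% of all genes tested, and the median log2 difference was -4.45 (-3.71 with bounds). These values leave out listed genes under the filter, which reads of a single line are enough to pass. Among those left out, TWIST1 and TWIST2 had no reads in either line. ZEB2, PRRX1, FOXC2, THY1 and POSTN had at most 3 counts in any control library. VIM, which encodes the intermediate filament vimentin, was at 683 and 728 CPM in SW480 and 0.21 and 0.11 CPM in HT29, a ratio of 4461-fold (95% counting interval 1526 to 21633). ZEB1, a repressor of epithelial genes, was at 41.3 and 37.2 CPM in SW480 against 0.42 and 0.43 CPM in HT29 (log2 -6.49, SE 0.254). SNAI2 was at 5.73 and 3.97 CPM in SW480 and had no reads in HT29, and SNAI1 was at 4.29 and 6.72 CPM in SW480 against 1.89 and 1.38 CPM in HT29. FN1, the gene of fibronectin, was at 294 and 345 CPM in SW480 against 1.36 and 1.7 CPM in HT29 (log2 -7.69, SE 0.19). The cadherin CDH11 was at 93.5 and 86.8 CPM in SW480 and had no reads in HT29, which is at least 285-fold higher, while CDH2, the gene of N-cadherin, had 1 count in 1 SW480 library and none elsewhere. QKI, an RNA-binding protein of mesenchymal splicing, was at 69.6 and 65.9 CPM and had no reads in HT29 (at least 214-fold).

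The receptor kinase AXL was at 217 and 233 CPM in SW480 against 13 and 10.7 CPM in HT29 and its ligand GAS6 at 67.6 and 79.5 CPM in SW480 against 1.15 and 0.74 CPM in HT29. AKAP12, a kinase scaffold, was at 1064 and 1012 CPM in SW480 against 43.5 and 38.8 CPM in HT29 (log2 -4.66, SE 0.113). CYR61 was at 334 and 309.6 CPM in SW480 against 9.96 and 8.51 CPM in HT29, ANKRD1 at 331 and 266 CPM in SW480 against 0.84 and 0.85 CPM in HT29 and CTGF at 26.8 and 27.9 CPM in SW480 against 10.3 and 11.9 CPM in HT29. A group of 6 collagen genes was picked after values were seen and left out others, such as COL17A1, which was higher in HT29 (below). Of the 6 picked, 5 were tested and 5 were higher in SW480 (against 35.7% of all genes tested), such as COL6A1 at 45.5 and 67.2 CPM in SW480 against 0.73 and 0.85 CPM in HT29. In the other direction, BGN, which encodes the matrix proteoglycan biglycan, was at 135 and 138 CPM in HT29 and 0.11 and 0 CPM in SW480, a ratio of 2580.2-fold (95% counting interval 463 to 101950). The tropomyosin TPM2 at 58.5 and 55.4 CPM in HT29 against 18 and 22.6 CPM in SW480, TPM1, LOXL1 and the matrix protein TGFBI at 126 and 132 CPM in HT29 against 75.8 and 81.8 CPM in SW480 (log2 0.71, SE 0.108) were also higher in HT29. MSN, NT5E, TAGLN, FOXC1 and TCF4 were not called.

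**Figure D2:**
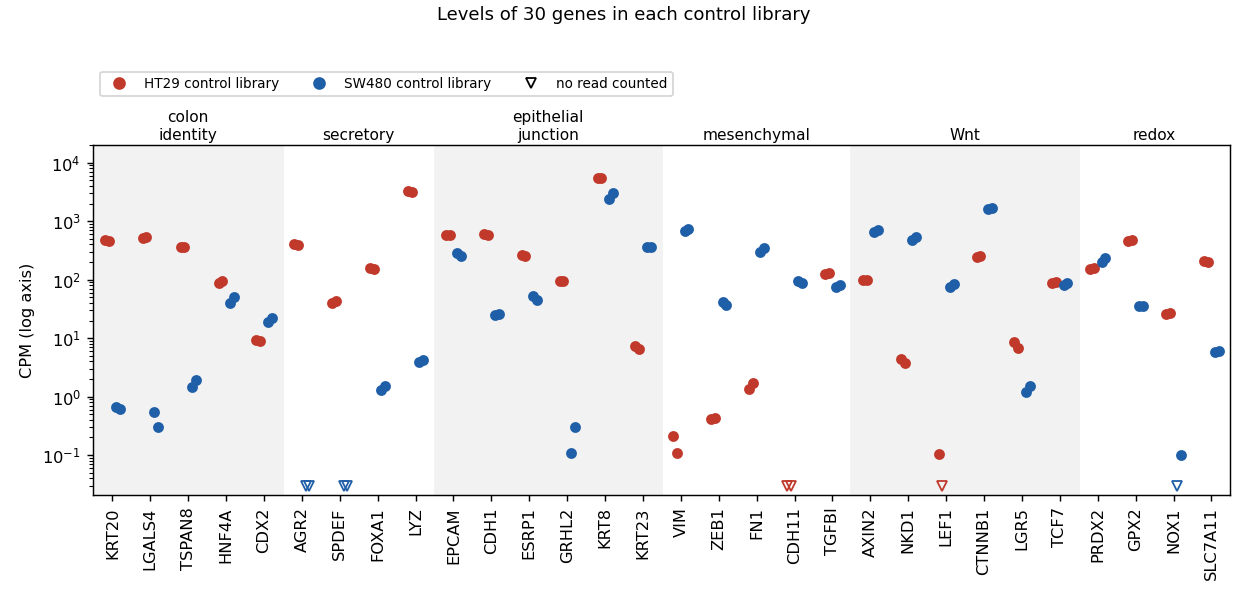
Level of 30 genes (horizontal axis, grouped by the list they came from) in each of the 2 HT29 (red) and 2 SW480 (blue) control libraries on a log axis of CPM, with open triangles at the foot for libraries without a read. Duplicates lie close together, and CDH1 lies between 577 and 599 CPM in HT29 and between 24.9 and 26.2 CPM in SW480.

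Wnt pathway and stem cell genes differed strongly in both directions. Of 62 listed genes, 59 were tested, with 23 higher in HT29 (39%), 31 higher in SW480 (52.5%) and 5 not called, against 31.8% and 35.7% of all genes tested. By at least 2-fold these were 16 and 24, and the median log2 difference was -0.475. CTNNB1, the gene of β-catenin, was at 247 and 253 CPM in HT29 and 1649 and 1682 CPM in SW480, 6.66-fold higher in SW480 (log2 -2.74, SE 0.0865, adjusted p = 6.85e-08 by edgeR). Of 21 genes that are feedback regulators or targets of the pathway, 14 were higher in SW480, 6 in HT29 and 1 was not called, and 13 and 3 of these differed by at least 2-fold, against 21.5% and 15.7% of all genes tested. The 21 genes were picked after values were seen, so that these counts are descriptions only. AXIN2, a target gene and scaffold of the β-catenin destruction complex, was at 99.9 and 99 CPM in HT29 against 660.0 and 696 CPM in SW480 (log2 -2.77, SE 0.0982). NKD1, an inhibitor acting on Dishevelled, was at 4.4 and 3.72 CPM in HT29 against 476 and 536 CPM in SW480, which is 124-fold higher in SW480 (log2 -6.96, SE 0.156). NOTUM, a secreted enzyme that inactivates Wnt proteins, was at 1.47 and 0.85 CPM in HT29 against 86.2 and 128 CPM in SW480. SP5 at 9.23 and 13.8 CPM in HT29 against 52.9 and 71.1 CPM in SW480, ASCL2 at 8.08 and 8.4 CPM in HT29 against 23.3 and 30.7 CPM in SW480 and TNFRSF19 at 0.21 and 0.11 CPM in HT29 against 43.3 and 38.2 CPM in SW480 were higher in SW480 too. The cyclin gene CCND1 was at 184 and 184 CPM in HT29 against 1267 and 1300.2 CPM in SW480 (log2 -2.80, SE 0.0895), and MYC at 242 and 254 CPM in HT29 against 359 and 395 CPM in SW480 (log2 -0.61, SE 0.0992).

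Other target genes of the pathway went the opposite way. LGR5, the receptor of R-spondins that marks crypt stem cells, was low in both lines and higher in HT29 at 8.49 and 6.81 CPM against 1.21 and 1.53 CPM in SW480 (log2 2.47, SE 0.28), and its relative LGR4 was at 188 and 188 CPM in HT29 against 23.9 and 23.7 CPM in SW480. RNF43, a ubiquitin ligase that removes Wnt receptors, was at 290.2 and 278 CPM in HT29 against 121 and 143 CPM in SW480, and CD44 at 575 and 563 CPM in HT29 against 221 and 214 CPM in SW480. Nuclear partners of β-catenin differed in kind. LEF1 was at 74.4 and 84.8 CPM in SW480 and 0.1 and 0 CPM in HT29, a ratio of 1511-fold (95% counting interval 271 to 59735). TCF7L1 was at 9.47 and 10.6 CPM in SW480 against 0.73 and 0.43 CPM in HT29, TCF7L2 was higher in HT29 at 70.8 and 75.6 CPM against 22 and 27.1 CPM in SW480, and TCF7 was not called. Among ligands, WNT5A was at 266 and 234 CPM in SW480 and 0.21 and 0.21 CPM in HT29, WNT6 at 29.5 and 47.7 CPM in SW480 against 0 and 0.11 CPM in HT29, and WNT11 was higher in HT29 at 16.2 and 19.6 CPM against 1.98 and 1.53 CPM in SW480. Receptor genes FZD5 (58.2 and 57.3 CPM in HT29 against 12.7 and 13.7 CPM in SW480) and LRP5 (398 and 421 CPM in HT29 against 92.3 and 135 CPM in SW480) were higher in HT29 and LRP6 was not called. In the destruction complex, AXIN1 was at 104 and 103 CPM in HT29 and 29.4 and 37.3 CPM in SW480 (log2 1.63, SE 0.138) and APC at 74.4 and 77.4 CPM in HT29 against 116 and 95 CPM in SW480. The tankyrase genes, whose enzymes mark axin proteins for degradation, were at 33.6 and 35.7 CPM in HT29 against 54.1 and 48.3 CPM in SW480 for TNKS, called below 2-fold, and 144 and 141 CPM in HT29 against 141 and 115 CPM in SW480 for TNKS2, not called.

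Genes of peroxide and thiol metabolism differed in both directions. Of 50 listed genes, 45 were tested, with 25 higher in HT29, 12 higher in SW480 and 8 not called, and by at least 2-fold 16 and 6, the latter against 15.7% and 21.5% of all genes tested. The median log2 difference was 0.577. Peroxiredoxins reduce hydrogen peroxide with thioredoxin as electron donor, and of 6 genes 2 were higher in HT29, 3 in SW480 and 1 was not called, against 31.8% and 35.7% of all genes tested, respectively. The 6 genes were grouped after values were seen. PRDX2 had a log2 difference of -0.49 (SE 0.114, adjusted p = 0.00447 by edgeR), and without the first or the second HT29 library the difference was -0.47 and -0.52 with an adjusted p of 0.111 and 0.0757 by edgeR. PRDX1 was at 325 and 331 CPM in HT29 and 376 and 328 CPM in SW480 and was not called. PRDX4, the peroxiredoxin of the endoplasmic reticulum, was at 37.5 and 40.9 CPM in HT29 against 102 and 78.6 CPM in SW480 (log2 -1.20, SE 0.15). GPX2, the glutathione peroxidase of gastrointestinal epithelium, was at 456 and 477 CPM in HT29 and 35.9 and 35.9 CPM in SW480 (log2 3.70, SE 0.108), while GPX8 was higher in SW480 at 53 and 40.8 CPM against 8.7 and 7.98 CPM in HT29.

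NOX1, the NADPH oxidase of colonic epithelium, was at 26.3 and 27.3 CPM in HT29 and 0 and 0.1 CPM in SW480, a ratio of 507-fold (95% counting interval 90.6 to 20059), and its organizer NOXO1 was at 28.9 and 26.6 CPM in HT29 against 2.86 and 4.48 CPM in SW480. SLC7A11, the cystine importer that feeds glutathione synthesis, was at 209.9 and 198 CPM in HT29 against 5.84 and 5.91 CPM in SW480 (log2 5.11, SE 0.139). NQO1, a quinone reductase driven by NRF2, was at 589 and 579.9 CPM in HT29 against 301 and 257 CPM in SW480. Of 5 genes that supply NADPH, 5 were higher in HT29 (against 31.8% of all genes tested), such as TALDO1 at 348 and 346 CPM in HT29 against 132 and 176 CPM in SW480. This group was picked after values were seen, so that its count is a description only. SOD1, the cytosolic superoxide dismutase, was higher in SW480 at 295 and 291 CPM against 115 and 112 CPM in HT29, and the stress protein SESN3 at 0.63 and 0.21 CPM in HT29 against 24.2 and 21 CPM in SW480. KEAP1, TXNRD1, TXN2, SRXN1, GSR, GCLM and GLRX2 were not called.

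Among genes that metabolize drugs and aldehydes, 47 of 65 listed genes were tested, with 29 higher in HT29, 14 higher in SW480 and 4 not called, and by at least 2-fold 21 and 12, the latter against 15.7% and 21.5% of all genes tested. The median log2 difference was 0.779. ALDH1A1, a retinaldehyde dehydrogenase, was at 842 and 827 CPM in HT29 and 0.88 and 0.61 CPM in SW480 (log2 10.11, SE 0.171), whereas its relative ALDH1A3 was higher in SW480 at 309.9 and 312 CPM against 23 and 21.5 CPM in HT29. UGT1A10, a glucuronosyltransferase, was at 227 and 219 CPM in HT29 and had no reads in SW480, but exons shared within the UGT1A locus make its share uncertain. AKR1B10 was at 45.7 and 46.4 CPM in HT29 against 0.11 and 0 CPM in SW480, a ratio of 870.1-fold (95% counting interval 156 to 34404). CYP3A5 at 113 and 109 CPM in HT29 against 14 and 12.4 CPM in SW480 and CYP1B1 at 38.7 and 40.4 CPM in HT29 against 1.87 and 2.04 CPM in SW480 were also higher in HT29. CYP24A1, the enzyme that degrades active vitamin D, was at 389.7 and 369 CPM in SW480 and 7.13 and 7.87 CPM in HT29 (log2 -5.66, SE 0.134). Drug exporters were divided between the lines. ABCB1, the gene of P-glycoprotein, was at 62 and 53 CPM in SW480 and 0.21 and 0.11 CPM in HT29, a ratio of 362-fold (95% counting interval 123 to 1757), while ABCC3 at 596 and 619 CPM in HT29 against 39.3 and 52.3 CPM in SW480 and ABCG2 at 54.7 and 48.3 CPM in HT29 against 2.2 and 1.83 CPM in SW480 were higher in HT29. AKR1C1, with near-identical relatives, was at 6.92 and 4.15 CPM in HT29 and 1.1 and 0 CPM in SW480. It was called by edgeR (log2 3.35, SE 0.68) and not by DESeq2 (adjusted p = 0.166). Its log2 difference was 2.31 without the second SW480 library, and without the first no reads remained in SW480.

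Readouts of MAPK signalling and genes of growth factor receptors and ligands differed between the lines. Of 43 listed MAPK genes, 43 were tested, with 11 higher in HT29, 23 higher in SW480 and 9 not called, against 31.8% and 35.7% of all genes tested. At 2-fold or more the counts were 5 and 15, against 15.7% and 21.5%, and the median log2 difference was -0.424. DUSP6, the phosphatase that feeds back on ERK, was at 184 and 176 CPM in HT29 and 541 and 504 CPM in SW480 (log2 -1.54, SE 0.097). DUSP5 at 25.5 and 25.2 CPM in HT29 against 222 and 222 CPM in SW480, ETV5 at 80.9 and 76.5 CPM in HT29 against 282 and 248 CPM in SW480 and FOSL1 at 27.3 and 28.3 CPM in HT29 against 99.9 and 126 CPM in SW480 had the same order, and ETV4 was at 119 and 116 CPM in HT29 against 155 and 172 CPM in SW480. Without the first or the second HT29 library, ETV4 was not called (adjusted p = 0.0961 and 0.125 by edgeR). The ephrin receptor EPHA4 was at 67.8 and 61.9 CPM in SW480 and 0 and 0.21 CPM in HT29, and the chemokine CXCL1 at 138 and 119.7 CPM in SW480 against 2.83 and 2.55 CPM in HT29. Feedback inhibitors SPRY1 (49.3 and 42.1 CPM in HT29 against 7.38 and 5.81 CPM in SW480) and SPRED1 (194 and 190.4 CPM in HT29 against 50.7 and 39.6 CPM in SW480), and the immediate early genes EGR1 (208 and 197 CPM in HT29 against 65.1 and 72.1 CPM in SW480) and JUN (177 and 179 CPM in HT29 against 48.9 and 52.1 CPM in SW480), were higher in HT29. SPRY2, DUSP1, DUSP4, DUSP7, FOSB, NRAS, ARAF, MAP2K2 and MAPK3 were not called.

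Of 30 listed receptor and ligand genes, 27 were tested, with 17 higher in HT29, 7 higher in SW480 and 3 not called, against 31.8% and 35.7% of all genes tested. With 2-fold asked for the counts were 14 and 6, against 15.7% and 21.5%, and the median log2 difference was 1.35. EGFR was not called, at 118 and 114 CPM in HT29 and 94.4 and 115 CPM in SW480. Its ligands amphiregulin and epiregulin were higher in HT29, with AREG at 154 and 153 CPM in HT29 against 11.5 and 9.78 CPM in SW480 (log2 3.85, SE 0.135) and EREG at 234 and 237 CPM in HT29 against 33.5 and 29 CPM in SW480 (log2 2.92, SE 0.121). ERBB3 was at 437 and 434 CPM in HT29 against 84.1 and 83.5 CPM in SW480, ERBB2 at 269.5 and 278 CPM in HT29 against 63 and 92.4 CPM in SW480 and MET at 537 and 531 CPM in HT29 against 59.8 and 49.6 CPM in SW480. NRG1, a neuregulin, was at 3.3 and 3.77 CPM in SW480 without reads in HT29 and NRG2 at 5.62 and 6.21 CPM in SW480 against 0 and 0.11 CPM in HT29. Fibroblast growth factor receptors separated by gene, since FGFR1 was at 71.8 and 91.2 CPM in SW480 and 0.21 and 0.11 CPM in HT29, whereas FGFR2 was at 69.2 and 66 CPM in HT29 and 2.53 and 2.65 CPM in SW480, FGFR3 at 71.8 and 73.4 CPM in HT29 against 5.95 and 8.25 CPM in SW480 and FGFR4 at 68.3 and 69.9 CPM in HT29 against 22.7 and 30.3 CPM in SW480. The adaptor IRS1 was higher in HT29 (206 and 196 CPM in HT29 against 43.9 and 51.2 CPM in SW480) and IRS2 in SW480 (36 and 34.5 CPM in HT29 against 91.7 and 106 CPM in SW480).

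Antigen presentation and interferon-stimulated genes differed in both directions. Of 53 listed genes, 49 were tested, with 26 higher in HT29 (53.1%), 17 higher in SW480 (34.7%) and 6 not called, against 31.8% and 35.7% of all genes tested. With 2-fold asked for the counts were 18 and 13, against 15.7% and 21.5%, and the median log2 difference was 0.479. Of 15 tested genes of class I presentation, 9 were higher in SW480, 3 in HT29 and 3 were not called, against 35.7% and 31.8% of all genes tested. This group and the interferon-stimulated group below were formed after values were seen, so that their counts are descriptions only. HLA-B, a heavy chain of class I, was at 268 and 288 CPM in SW480 and 12.1 and 13.1 CPM in HT29 (log2 -4.47, SE 0.128), and HLA-C at 342 and 380.5 CPM in SW480 against 79.2 and 80.4 CPM in HT29. B2M, the invariant light chain, was at 645 and 647 CPM in HT29 against 845 and 633 CPM in SW480 and was not called. Class I genes are polymorphic and alike, so reads of one may have been counted for another. The peptide transporter TAP1 was at 65 and 67.6 CPM in SW480 against 26.3 and 23.4 CPM in HT29 and the immunoproteasome subunit PSMB9 at 24.2 and 25.4 CPM in SW480 against 3.88 and 3.72 CPM in HT29, while the aminopeptidase ERAP2 was higher in HT29 at 131 and 126 CPM against 14.9 and 12.2 CPM in SW480. Of 24 interferon-stimulated genes, 18 were higher in HT29, 4 in SW480 and 2 were not called, against 31.8% and 35.7% of all genes tested. IFI27 was at 129.7 and 138 CPM in HT29 and 2.75 and 2.24 CPM in SW480 (log2 5.74, SE 0.167), IFI44 at 20.8 and 22.3 CPM in HT29 against 0.11 and 0 CPM in SW480, BST2 at 126 and 128 CPM in HT29 against 16.7 and 18.5 CPM in SW480 and ISG15 at 92.7 and 100.3 CPM in HT29 against 21.9 and 30.1 CPM in SW480. IFITM1, IFITM2 and IFITM3 were higher in SW480, with IFITM2 at 116 and 159.8 CPM in SW480 against 31.7 and 30.9 CPM in HT29, and near-identical copies may share their reads.

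HOX genes, which keep positional identity along the body axis, differed in both directions. Of 39 listed genes, 32 were tested, with 9 higher in HT29 (28.1%), 15 higher in SW480 (46.9%) and 8 not called, against 31.8% and 35.7% of all genes tested, and by at least 2-fold 9 and 11. In the HOXA cluster, 7 of 11 tested genes were higher in HT29 and 2 in SW480. HOXA13 was at 42.3 and 40.2 CPM in HT29 and 3.96 and 2.85 CPM in SW480 (log2 3.60, SE 0.192), HOXA11 at 53.7 and 56.5 CPM in HT29 against 10.5 and 10.8 CPM in SW480 and HOXA10 at 97 and 105 CPM in HT29 against 21.9 and 23.2 CPM in SW480. In the HOXB cluster, 6 of 9 tested genes were higher in SW480 and 1 in HT29. That was HOXB9, at 299 and 304 CPM in HT29 against 116 and 127 CPM in SW480, while HOXB8 was at 55.8 and 55.3 CPM in HT29 against 208 and 225 CPM in SW480. The HOXC cluster had 4 of 8 tested genes higher in SW480 and 1 in HT29, and the HOXD cluster 3 of 4 higher in SW480 and none in HT29. With 4 to 11 tested genes in a cluster these counts are descriptions, to be read against the shares of all genes above. HOXC10 was at 15.5 and 13.5 CPM in SW480 and 0.21 and 0.21 CPM in HT29, and HOXD9 at 3.3 and 4.79 CPM in SW480 against 0.1 and 0 CPM in HT29. The division into clusters was made after the values were seen.

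Adhesion receptors, matrix genes and proteases were divided. Of 54 listed genes, 47 were tested, with 26 higher in HT29 (55.3%), 16 higher in SW480 (34%) and 5 not called, against 31.8% and 35.7% of all genes tested. At 2-fold or more the counts were 20 and 14, against 15.7% and 21.5%, and the median log2 difference was 0.696. ITGA5, the fibronectin receptor subunit, was at 145 and 153 CPM in SW480 and 0.31 and 0.11 CPM in HT29 (log2 -9.37, SE 0.246), and ITGA1 at 576 and 512 CPM in SW480 against 117 and 123 CPM in HT29. ITGB6, the epithelial partner of the αv chain, was at 42.1 and 38.6 CPM in HT29 and 4.52 and 4.18 CPM in SW480. The hemidesmosomal collagen COL17A1 was at 146 and 149.7 CPM in HT29 against 2.09 and 2.34 CPM in SW480, and its anchoring fibril counterpart COL7A1 at 39.6 and 54.3 CPM in SW480 against 0.1 and 0.32 CPM. Among secreted and membrane serine proteases, KLK6 was at 509 and 500.0 CPM in HT29 against 63.3 and 82.7 CPM in SW480, KLK11 at 93.8 and 93.6 CPM in HT29 against 0.66 and 1.02 CPM in SW480 and TMPRSS4 at 82.1 and 91.6 CPM in HT29 against 0.44 and 0.61 CPM in SW480. TIMP3, an inhibitor of metalloproteases, was at 32.3 and 25.7 CPM in SW480 and had no reads in HT29 (at least 91.4-fold), and the plasminogen activator PLAU was at 111 and 111 CPM in SW480 against 1.05 and 1.91 CPM in HT29.

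Of 27 S100 and annexin genes, 20 were tested, with 11 higher in HT29 (55%), 6 higher in SW480 (30%) and 3 not called, against 31.8% and 35.7% of all genes tested. At 2-fold or more the counts were 7 and 3, against 15.7% and 21.5%. S100A14 was at 90.1 and 87.9 CPM in HT29 and 2.42 and 2.04 CPM in SW480, and S100A6 at 2111 and 2168 CPM in HT29 against 561 and 574 CPM in SW480. S100A4, which is known for its link to invasion, was at 327 and 324 CPM in HT29 and 605 and 502 CPM in SW480 (log2 -0.77, SE 0.111), and S100A3 was at 77.4 and 82.9 CPM in SW480 against 1.26 and 0.64 CPM. ANXA10 was at 57.2 and 53.2 CPM and ANXA13 at 79.8 and 79.1 CPM in HT29, against no reads and 0 and 0.1 CPM in SW480, while ANXA6 was at 458 and 528 CPM in SW480 and 9.44 and 7.34 CPM in HT29 (log2 -5.88, SE 0.161).

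Most cell cycle and ribosomal protein genes differed by less than 2-fold. Of 56 listed cell cycle genes, 56 were tested, with 9 higher in HT29, 33 higher in SW480 and 14 not called, against 31.8% and 35.7% of all genes tested. At 2-fold or more there were 0 in HT29 and 6 in SW480, against 15.7% and 21.5%. The median log2 difference was -0.369. Without the first or the second HT29 library, 19 and 18 genes were higher in SW480 and 3 and 2 in HT29. The 6 tested MCM genes, which encode the replicative helicase, were each called higher in SW480, none of them by 2-fold (against 35.7% of all genes tested called higher in SW480), such as MCM7 at 444 and 452 CPM in HT29 and 741 and 864 CPM in SW480. The MCM group was formed after values were seen, so that its count is a description only. CDKN1A, the inhibitor p21, was at 128 and 149 CPM in SW480 and 35.6 and 34.7 CPM in HT29 (log2 -1.98, SE 0.124), CDKN2B at 82.6 and 79.7 CPM in SW480 against 19.7 and 20.4 CPM in HT29, and CDKN2A at 59.99 and 63.4 CPM in HT29 and 32.4 and 51 CPM in SW480 (log2 0.56, SE 0.195). The call of CDKN2A was lost with limma (adjusted p = 0.101 and 0.118 with pseudocounts 1 and 0.1) and without the second HT29 library (adjusted p = 0.0893 by edgeR). MKI67 was at 711 and 688 CPM in HT29 and 498 and 584 CPM in SW480. Of 50 cytosolic ribosomal protein genes, 35 were higher in HT29, 1 in SW480 and 14 were not called, against 31.8% and 35.7% of all genes tested. With 2-fold asked for the counts were 7 and 0, against 15.7% and 21.5%, and the median log2 difference was 0.709. RPL37 was at 484 and 457 CPM in HT29 against 179 and 210.5 CPM in SW480, whereas RPL29 was higher in SW480 at 405 and 415 CPM against 285 and 293 CPM in HT29. The count higher in SW480 was 0 without either HT29 library, 6 and 5 without the first and the second SW480 library and 4 with a correction for GC content. These genes have many processed pseudogenes, so that their reads are uncertain.

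Cancer-testis genes, which are silent in most adult tissues, were mostly under the filter. Of 33 listed genes, 9 were tested, with 4 higher in HT29 and 5 in SW480, against 31.8% and 35.7% of all genes tested. MAGEA3, with near-identical copies, was at 8.6 and 8.93 CPM in HT29 and had no reads in SW480. MAGED2, a broadly expressed relative, was at 263 and 256 CPM in SW480 and 86.4 and 85.1 CPM in HT29, and TEX15 at 9.58 and 8.76 CPM in SW480 against 0 and 0.11 CPM in HT29. PASD1, a further gene of this kind that was not in the list, was at 104 and 96.8 CPM in SW480 and had no reads in HT29, which is at least 317-fold higher.

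Levels of different genes were ranked as TPM. Of the 20 genes with the highest mean TPM in each line, 9 were shared, among them TPT1, KRT18, KRT8 and GAPDH. The pseudogene RPL13AP5 was among them too, and its reads may belong to the ribosomal protein gene it was copied from. KRT18 was at 8110.4 and 8099.6 TPM in HT29 and 5459 and 5182 TPM in SW480. Genes among the highest in HT29 and not in SW480 were S100A6 at 7000.4 and 7199.7 TPM in HT29 against 2061 and 2071 TPM in SW480, the ferritin heavy chain FTH1 at 4687 and 4671 TPM in HT29 against 2186 and 2234 TPM in SW480, and LYZ at 4652 and 4528 TPM in HT29 against 6.06 and 6.65 TPM in SW480. LYZ had rank 13 among the genes of HT29. In SW480, the chaperone HSP90AA1 had rank 19, at 3677 and 2921 TPM in SW480 against 593 and 581 TPM in HT29.

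The libraries with PRDX2 siRNA gave the same comparison in samples that the fit above did not use. In them, PRDX2 was at 86.1 and 86.8 CPM in HT29 and 68.4 and 69.5 CPM in SW480. edgeR called 11697 of the 14346 genes between the lines there, and 9024 of the 9681 genes called under control siRNA (93.2%) were called in the same direction. In the opposite direction, 37 were called. The spread between duplicates that edgeR estimated (coefficient of variation) was 0.0371 under PRDX2 siRNA and 0.0965 under control siRNA. The numbers of genes called under the siRNAs therefore do not measure which line difference was wider. Of the 5345 genes called at 2-fold or more, 5316 had the same sign, 29 the opposite sign, and 4584 (85.8%) were again called at 2-fold or more. Pearson's correlation of the log2 differences was 0.967 across genes, which are not independent replicates. KRT20 was at 630.0 and 615 CPM in HT29 and 0.71 and 0.99 CPM in SW480 under PRDX2 siRNA, CDH1 at 596 and 604 CPM in HT29 against 29.7 and 25.4 CPM in SW480, VIM at 0.51 and 0.55 CPM in HT29 against 548 and 559 CPM in SW480 and AXIN2 at 66.8 and 67.7 CPM in HT29 against 725 and 733 CPM in SW480. The median of each of the 16 lists with 9 or more tested genes had the same sign as under control siRNA, from 4.37 for the colon identity list to -3.66 for the mesenchymal list. That of the antigen presentation and interferon list was 0.0834, against 0.479 under control siRNA.

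**Figure D3:**
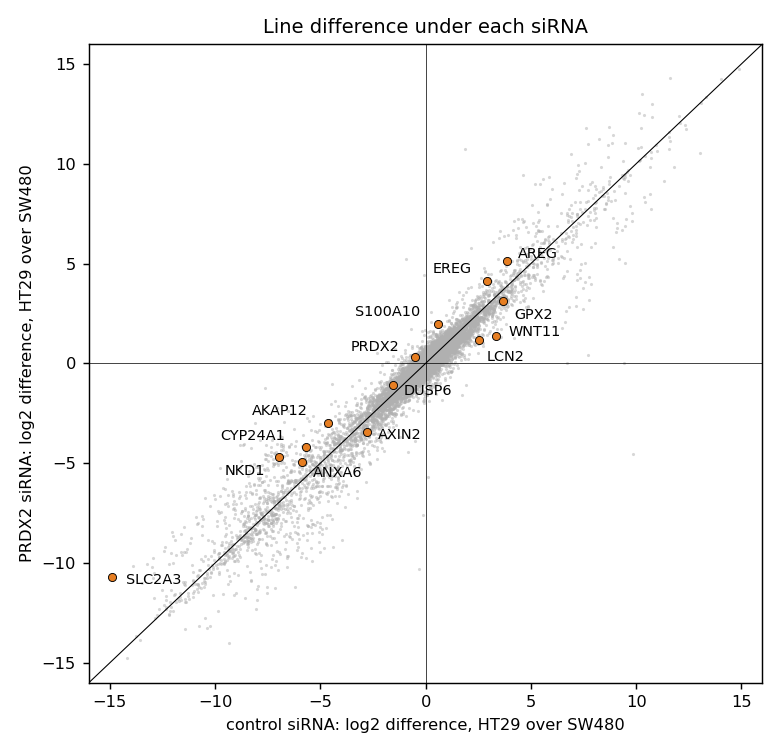
Log2 difference between HT29 and SW480 of each tested gene under control siRNA (horizontal axis) and under PRDX2 siRNA (vertical axis), 2 libraries per line and siRNA. Grey points are genes, the diagonal marks equal differences, and orange points are the 14 named genes for which the difference between the lines depended on the siRNA, such as SLC2A3, NKD1 and S100A10. Fitted differences of genes without reads in one line depend on edgeR's prior count.

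Differences between the lines were not spread evenly over the genome. Coordinates were matched for 91.2% of the symbols (GENCODE, GRCh37). The median log2 difference of the tested genes of a chromosome ran from -0.635 on chromosome 14 and -0.634 on chromosome 21 to 0.54 on chromosome 15, with chromosome 3 at -0.424, chromosome 17 at -0.351, chromosome 16 at 0.323 and chromosome 18 at 0.38. Of the tested genes of chromosomes 14 and 21, 63.9% of 446 and 60.2% of 133 were called higher in SW480 (against 35.7% of all genes), and 58.8% of 447 genes of chromosome 15 were called higher in HT29 (against 31.8%). Of 10 Mb windows with at least 20 tested genes, the 3 lowest and the 2 highest medians were on chromosome 8. The median was -1.88 for 27 genes between 10 and 20 Mb, -1.45 for 57 genes between 20 and 30 Mb, -1.04 for 33 genes between 30 and 40 Mb and -1.3 for 26 genes between 40 and 50 Mb, with -1.13 for 32 genes of chromosome X between 130 and 140 Mb as the next lowest after the first 3, against 1.62 for 37 genes between 120 and 130 Mb and 0.764 for 83 genes between 140 and 150 Mb. In the window from 20 to 30 Mb, 50 genes were called higher in SW480 and 2 higher in HT29. In libraries with PRDX2 siRNA the windows of chromosome 8 had medians of -1.53, -1.43, -1.05, -1.15, 1.82 and 0.495 in the order given, and that of chromosome X -1.04. The value of 0.495 was then below that of other windows, such as 0.836 on chromosome 4 between 30 and 40 Mb. Genes of a window are neighbours and not independent, the windows were picked for their medians, and DNA copy number was not measured here.

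**Figure D4:**
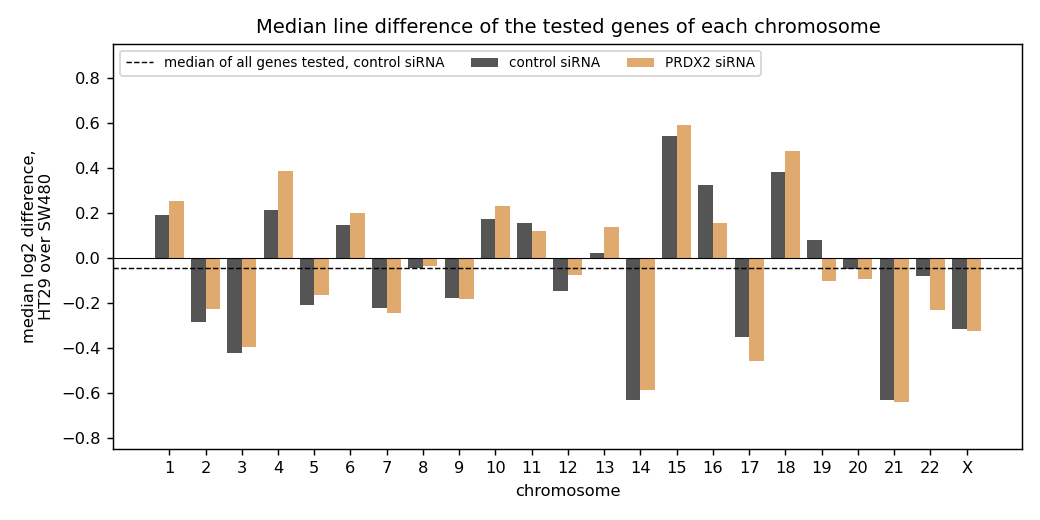
Median log2 difference, HT29 over SW480, of the tested genes of each chromosome under control siRNA (grey bars) and PRDX2 siRNA (tan bars), with the median of all genes at -0.0447 as a dashed line. Chromosomes 14 and 21 lie lowest and chromosome 15 highest under both siRNAs.

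Markers of other cell types were at low levels in every control library. Of 8 fibroblast markers, 4 had no reads in HT29 and 3 none in SW480, and their summed level was 6.61 and 4.89 CPM in HT29 and 24.9 and 30.2 CPM in SW480, of which COL1A1 made up 5.45 and 3.4 CPM and 18.8 and 24.1 CPM. The defining markers DCN and COL3A1 were at 0 in all 4 libraries. Of 12 immune cell markers, 8 had no reads in HT29 and 4 none in SW480, and the sums were 30.4 and 34.5 CPM in HT29 and 13.9 and 17.9 CPM in SW480, mostly from CD68 at 21.8 and 24 CPM and 9.91 and 12.3 CPM. PTPRC and MS4A1 were at 0 in all 4 libraries. Of 7 endothelial markers the sums were 1.99 and 2.45 CPM in HT29 and 5.07 and 5.6 CPM in SW480. The fibroblast sum was higher in the line with the higher mesenchymal genes, and its part in that result was not tested.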

How the data were processed

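RNA-seq libraries of HT29 and SW480 cells with control siRNA (2 each) were analysed, and the 4 libraries with PRDX2 siRNA served for a separate comparison. Per the study's methods, which describe the sequencing of HT29 samples, the authors trimmed reads with Fastx-toolkit, aligned them to hg19 with MapSplice and estimated abundance of refGene transcripts with RSEM. The deposited expected counts, which are not normalized, were rounded to whole numbers and tested, and the TPM values deposited by the authors were used for levels. The library kit does not mark strand, so antisense and overlapping genes cannot be told apart.

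Genes that reached 10 counts in 2 or more libraries were tested with edgeR 4.0.16 (TMM, quasi-likelihood test, Benjamini-Hochberg adjustment, threshold 0.05) in R 4.3.3. DESeq2 1.42.0 and limma 3.58.1 (on log2 of TPM plus 1 or 0.1) were alternatives. On simulated counts of this comparison (14064 genes, 200 changed), edgeR recovered 88% of genes changed by 1 and 99% of those changed by 2 on the log2 scale, and called 10 of 13864 unchanged genes. The simulation gave both lines the same spread and no trend with GC content, unlike the duplicates here. Its shares and its few false calls therefore do not carry over to these data. Replicate numbers were not used as pairs. The same processing was assumed for the SW480 libraries.

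The cell lines, gene lists and named genes were chosen with earlier results of these data known. Named genes were a chosen set, the 12 largest differences in each direction with at least 20 CPM in the higher line, and the 2 largest per list and direction with at least 5 CPM. Further genes and all subgroups of lists were chosen after their values were seen. Genes with near-identical copies are given as uncertain. Some genes are not reported here.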

Additional observations from a re-analysis of the deposited data

Results flagged for a closer look

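For 14 named genes the difference between the lines under PRDX2 siRNA differed from that under control siRNA, by an interaction term fitted with edgeR to all 8 libraries with Benjamini-Hochberg adjustment over all genes (adjusted p between 2.6e-05 and 0.044). The values below are changes of the log2 difference, HT29 over SW480, from control to PRDX2 siRNA. The change was 4.20 for SLC2A3 (adjusted p = 0.0188), which had 1 count in the HT29 control libraries so that its fitted value depends on edgeR's prior count, 2.25 for NKD1, 1.69 for AKAP12, 1.48 for CYP24A1 and 1.40 for S100A10. It was 1.26 for AREG and 1.23 for EREG, 0.93 for ANXA6, 0.82 for PRDX2 and 0.48 for DUSP6. It was below 0 for WNT11 at -1.97, LCN2 at -1.36, AXIN2 at -0.67 and GPX2 at -0.56. PRDX2 is the gene that the siRNA targets. S100A10 was at 93.1 and 96.9 CPM in the SW480 libraries with PRDX2 siRNA against 384 and 345 CPM with control siRNA, and at 378 and 380.2 CPM against 554 and 553 CPM in HT29. AREG was at 315 and 314 CPM in HT29 with PRDX2 siRNA against 154 and 153 CPM with control siRNA, and at 7.99 and 10.1 CPM against 11.5 and 9.78 CPM in SW480. With the exception of PRDX2, the sign of the line difference was the same under both siRNAs.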

How the results depend on the processing

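The count of called genes, 9681, was between 8666 (DESeq2) and 10896 (GC correction with replicate block) under the alternative fits, and between 7352 and 11124 when 1 library was left out. At 2-fold or more, 5345 genes became 4078 with a test against a 2-fold threshold and 6032 with no filter, and 5180 to 5581 with 1 library left out. Replicate numbers did not pair the libraries (correlation of deviations 0.0765), and the fit with the replicate block called 10044 genes, 5368 of them at 2-fold or more. Genes read in one line alone numbered 128 in HT29 and 491 in SW480 at a minimum of 5 CPM. With 10 counts or fewer allowed in the other line, they numbered 159 in HT29 and 437 in SW480. With limma the median log2 difference of all genes was -0.151 and -0.164 (pseudocounts 1 and 0.1), and 40.4% of called genes were higher in HT29, against 47.1% with edgeR. The sign changed for genes that were not called, B2M at 0.018 and EGFR at -0.0027 without SW480 replicate 1 (-0.39 and 0.29, both called, without SW480 replicate 2), and TCF7 at -0.016 and -0.017 with limma. PRDX2, ETV4, MAGED1 and RPL29 were not called without either HT29 library. CDKN2A was not called with limma or without HT29 replicate 2, AKR1C1 with DESeq2 or with limma at a pseudocount of 0.1, and MAGED1 with limma at a pseudocount of 1. Leaving out libraries for the gene lists was chosen after seeing the data. It moved the counts of the cell cycle and ribosome lists given above and the redox genes higher in SW480, which were 7 without HT29 replicate 2. The SW480 duplicates and the depth limit what can be said of small differences and of genes near the floor of 3 counts. The causes were not tested.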
